A study of Mus musculus with 6 samples.

Results

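Immune cells read cytokines through receptors that carry JAK kinases, and those kinases phosphorylate STAT transcription factors. Several SOCS proteins and their relative Cish are themselves induced by STAT factors and then block the same receptors, which makes them negative feedback inhibitors. Tyrosine phosphatases of the non-receptor PTPN family remove the phosphates from kinases, receptors and STAT proteins, and in T cells they also restrain antigen receptor signalling. The 8 genes described here are the phosphatases Ptpn1 (PTP1B), Ptpn2 (TC-PTP), Ptpn6 (SHP-1) and Ptpn22 (LYP in human, PEP in mouse), and the inhibitors Socs1, Socs2, Socs3 and Cish. They were taken by symbol from the 31053 features of the deposited count tables, and all 8 were present.

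Cells came from the pancreatic lymph nodes of 6 mice, 1 droplet library (10x Genomics) per mouse. A group of 3 mice carried a floxed gene together with the CD4-Cre transgene (Cre-positive), and 3 carried the floxed gene without CD4-Cre (Cre-negative), so that the floxed allele was common to both groups. The transgene drives recombinase from a Cd4 promoter, and because T cell precursors pass a stage with Cd4 before they become CD4 or CD8 cells, recombination reaches both kinds of T cell and Treg, while B and myeloid cells arise without that stage. The labels give neither strain, sex nor age. The mouse was the replicate in every test.

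The libraries held between 47149014 and 61321105 unique molecular identifiers (UMIs, each a captured RNA molecule), and 51777 of 59680 barcodes were kept. Cells were gated by UMIs of marker genes into 11471 conventional CD4 T cells (Cd3 and Cd4, no Foxp3, Ikzf2 or Cd8), 1713 regulatory T cells (Treg; Cd3 and Foxp3), 8692 CD8 T cells, 10988 B cells (Cd79a, Cd79b, Ms4a1) and 1289 myeloid cells (Cst3, Lyz2). None of the 8 genes served as a gate gene. Independent T cell markers (Trac, Trbc2, Lat, Cd2, Thy1) summed to between 3047 and 4150 CPM (UMIs of a gene scaled to a common library total) in the T cell classes and to at most 171 CPM in B and 80.7 CPM in myeloid cells. All 6 independent B cell markers and all 6 independent myeloid markers were detected in their classes. The myeloid markers summed to 2921 to 3557 CPM in myeloid cells, 674 to 794 CPM in B cells and at most 282 CPM in the T cell classes. Of the 10988 B cells, 1263 held a Fscn1 UMI or at least 5 Cst3 and Lyz2 UMIs. The hemoglobin genes Hba-a1 and Hbb-bs reached 5104 CPM in B cells of 1 Cre-negative mouse, whose part in the results was not tested. Library pairs shared 16 to 39 barcodes. Levels below are CPM of the summed UMIs of a class in 1 mouse, scaled by TMM factors over the sums compared. They serve to compare classes and mice for 1 gene and not to compare genes. Marker sums, hemoglobin sums and Malat1 in the state gates and myeloid subsets are given before TMM scaling.

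Start sites for 6 of the 8 genes were in the RefSeq promoter table on GRCm38.p6, and 3 are shown because their windows hold letters that resemble sites of factors which act in cytokine responses. Capitals mark matches to the STAT motif TTCNNNGAA in Cish (chr9:107296409-107296688, plus strand) and Socs3 (chr11:117969337-117969616, minus strand), and to the interferon regulatory factor motif GAAANNGAAA in Socs1 (chr16:10785507-10785786, minus strand). Each sequence runs 5′ to 3′ in the direction of transcription, from 250 bases before the annotated start to 30 after it.
Cish: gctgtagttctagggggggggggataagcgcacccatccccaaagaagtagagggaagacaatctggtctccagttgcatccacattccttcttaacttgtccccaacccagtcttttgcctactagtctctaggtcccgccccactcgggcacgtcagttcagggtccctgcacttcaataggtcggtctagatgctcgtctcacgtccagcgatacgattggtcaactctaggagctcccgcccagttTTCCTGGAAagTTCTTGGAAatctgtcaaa
Socs1: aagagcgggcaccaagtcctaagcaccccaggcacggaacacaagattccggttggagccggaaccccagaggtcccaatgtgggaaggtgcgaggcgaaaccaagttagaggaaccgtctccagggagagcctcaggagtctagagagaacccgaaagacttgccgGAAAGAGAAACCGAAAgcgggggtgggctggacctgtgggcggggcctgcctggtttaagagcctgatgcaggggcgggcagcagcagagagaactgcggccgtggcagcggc
Socs3: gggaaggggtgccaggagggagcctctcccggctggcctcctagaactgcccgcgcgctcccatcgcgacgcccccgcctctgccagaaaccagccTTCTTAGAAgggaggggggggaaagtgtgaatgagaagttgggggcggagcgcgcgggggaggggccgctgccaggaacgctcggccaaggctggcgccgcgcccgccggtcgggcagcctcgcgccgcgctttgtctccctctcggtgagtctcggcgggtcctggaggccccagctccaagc
Searched on both strands over the 300-base window that ends 50 bases after the start, the STAT motif was in 8.3% of the 32851 promoters of the table and the interferon regulatory factor motif in 3.44%. Cish held 2 STAT matches, with first bases 1 and 12 counted from the start, and Socs3 held 1 at -154. Socs1 held 2 interferon regulatory factor matches at -83 and -77, which overlap each other. Of the phosphatases, Ptpn1 and Ptpn6 held neither motif, and Ptpn22 held a STAT match at -232 from the second of its 2 annotated starts. These are matches of letters and no binding was measured. On the mm10 build all 8 are protein-coding genes, and the gene body of Ptpn1 lies on chr2:167932057-167979385 and that of Ptpn22 on chr3:103859795-103912247, both on the plus strand.

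The first comparison asked in which cell classes the genes were expressed. Treg stood apart from conventional CD4 cells by more Cish, Socs2, Socs1, Ptpn22 and Socs3 and by less Ptpn6 and Ptpn2. B cells were marked by Ptpn6, which was higher there than in any other class, and by very little Cish and Socs1, and myeloid cells held the most Socs2. Ptpn1 varied least between classes and was lowest in CD8 cells. Of the 8 genes, 5 were called higher and 2 lower in Treg than in CD4 cells at an adjusted p under 0.05. Of all 13266 genes tested 36.4% were called in that comparison, 17.1% higher and 19.4% lower. In CD8 against CD4 cells 3 were called higher and 3 lower (28.8% of all genes, 13.6% higher and 15.2% lower), in B against CD4 cells 1 higher and 5 lower (65.4%, 32.3% higher and 33% lower), and in myeloid against CD4 cells 2 higher and 5 lower (68.2%, 33.7% higher and 34.5% lower). With CD8 set against Treg, 1 was called higher and 5 lower (40.2% of all genes, 20.7% higher and 19.5% lower). In B and myeloid cells the counts over both directions, 6 and 7 of 8, stand beside these large shares of all genes. The tests were quasi-likelihood tests of edgeR on UMI sums per mouse and class, fitted over 30 sums with a term for each mouse, with Benjamini-Hochberg adjustment over all genes, and the adjusted p-values of class and state differences below come from such fits.

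Cish, which is induced by STAT5 and restrains interleukin-2 and antigen receptor signals, had the steepest gradient. Over the 6 mice its level in Treg was 92.3 CPM at the lowest, 106 at the median and 124 at the highest. CD4 cells followed at 12.4, 14.9 and 18.9 CPM and CD8 cells at 4.84, 5.52 and 6.55 CPM, and these 3 ranges did not overlap. B cells lay between 0.165 and 0.807 CPM and myeloid cells between 0 and 7.20 CPM, on 27 and 17 UMIs in all, and the ranges of CD8 and myeloid cells overlapped. The log2 fold change of Cish in Treg over CD4 was 2.84 (SE 0.0897, adjusted p = 2.74e-33), that in CD8 over CD4 was -1.41 (SE 0.113, adjusted p = 1.26e-15), and that in B over CD4 was -4.84 (SE 0.187). With each cell thinned to 2000 UMIs, a median of 19.1% of Treg in a mouse had a Cish UMI, against 2.50% of CD4 and 1.03% of CD8 cells. Without thinning these medians were 32.9%, 6.68% and 3.02%. B cells, which served as the background, had a Cish UMI in 0.102% of thinned and 0.301% of unthinned cells at the median, with median depths of 3879 to 5160 UMIs per cell in B cells and 3851 to 5124 in Treg.

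Socs2, an inhibitor best known for limiting growth hormone signals, was concentrated in myeloid cells and Treg. Myeloid cells held 63.4 CPM at the lowest, 131 at the median and 242 at the highest, and Treg held 30.8, 37.3 and 54.4 CPM. B, CD4 and CD8 cells ranged from 1.55 to 6.16, 0.626 to 4.15 and 0.627 to 3.21 CPM and overlapped each other. Socs2 was higher than in CD4 cells by a log2 fold change of 5.90 in myeloid cells (SE 0.295, adjusted p = 5.49e-14) and 4.04 in Treg (SE 0.324, adjusted p = 1.00e-09).

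Few cells carried Socs2 in the CD4, CD8 and B gates, and those with the most also held UMIs of a dendritic cell marker. The 11 cells of these 3 gates with at least 5 Socs2 UMIs held 8 to 68 UMIs of the dendritic marker Fscn1 and 4 to 40 UMIs of the 6 independent myeloid markers. All 13 such cells of the Treg gate had 0 Fscn1 UMIs, and they held 0 to 5 UMIs of the myeloid markers. After cells with a Fscn1 UMI or at least 5 Cst3 and Lyz2 UMIs were left out, a step chosen after these values were seen, 394 of 421 Socs2 UMIs were left in Treg, but 68 of 147 in CD4, 43 of 77 in CD8 and 76 of 135 in B cells. The Treg over CD4 difference was then 5.13 (SE 0.288).

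Socs1, an inhibitor of interferon and interleukin-2 receptor signalling that is needed for Treg stability, was ordered Treg, CD8, CD4, myeloid and B. Its range was 82.2 to 93.9 CPM in Treg, above the 59.0 to 81.2 CPM of CD8 cells, while CD8 and CD4 cells (47.5 to 65.2 CPM) overlapped. In B cells it lay between 9.94 and 15.3 CPM. Log2 fold changes over CD4 cells were 0.75 in Treg (SE 0.0913, adjusted p = 2.81e-08), 0.36 in CD8 cells (SE 0.0750), -0.63 in myeloid cells (SE 0.152) and -2.06 in B cells (SE 0.0931). Socs3, which blocks the gp130 receptor of interleukin-6, was less graded among T cells. Its median was 61.5 CPM in Treg, 56.2 in CD8 and 52.2 in CD4 cells, with overlapping ranges in each neighbouring pair, and 33.4 CPM in B and 14.1 CPM in myeloid cells, which overlapped neither each other nor the T cells. The Treg over CD4 difference of Socs3 was 0.29 (SE 0.0778, adjusted p = 0.00243) and the CD8 over CD4 difference was 0.08 (95% interval -0.04 to 0.21, adjusted p = 0.334).

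Among the phosphatases, Ptpn6, which dampens B cell and T cell receptor signals from inhibitory receptors, ranged from 349 to 408 CPM in B cells, clear of every other class. Myeloid and CD8 cells followed with medians of 174 and 163 CPM, CD4 cells had 133 CPM and Treg had 99.5 CPM. The B over CD4 log2 fold change was 1.49 (SE 0.0494, adjusted p = 8.37e-34) and the Treg over CD4 one was -0.41 (SE 0.0607, adjusted p = 1.15e-07). Ptpn22, which removes activating phosphates from Lck and Zap70, was highest in CD8 cells and Treg. It ranged from 177 to 209 CPM in CD8 cells and 153 to 199 CPM in Treg, which overlapped, and from 103 to 133 CPM in CD4 cells, which did not. In B cells it was at 45.1 to 98.7 CPM and in myeloid cells at 26.3 to 53.3 CPM, which overlapped. Its log2 fold change over CD4 cells was 0.77 in CD8 cells (SE 0.0910), 0.61 in Treg (SE 0.103), -0.63 in B cells (SE 0.0953) and -1.51 in myeloid cells (SE 0.173).

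Ptpn2 dephosphorylates JAK1, JAK3 and STAT proteins. It had its highest median in CD4 cells (83.5 CPM), and every other class was called lower, by -0.23 in Treg (SE 0.0676, adjusted p = 0.00579), -0.33 in CD8, -0.54 in B and -0.51 in myeloid cells. The Treg call was lost with DESeq2 (adjusted p = 0.0547), at a limit of 5% mitochondrial UMIs (0.125) and without Cre-positive mouse 3 (0.0613), within a range of 0.000839 to 0.125 over 13 other settings. Ptpn1, which acts on JAK2 and TYK2 among its targets, had medians of 150 CPM in Treg, 154 in myeloid, 149 in CD4, 143 in B and 118 in CD8 cells. CD8 cells, at 103 to 119 CPM, lay below the ranges of CD4, Treg and B cells and overlapped that of myeloid cells (117 to 190 CPM), with a log2 fold change over CD4 of -0.34 (SE 0.0558, adjusted p = 1.83e-06). The Treg over CD4 difference of Ptpn1 was 0.10 (95% interval -0.02 to 0.23, adjusted p = 0.210) and passed the threshold only with RLE size factors (0.0391) and DESeq2 (0.0413). The myeloid over CD4 difference was 0.11 (SE 0.0753, adjusted p = 0.206) and passed it with RLE size factors (0.00397), DESeq2 (0.00321) and without Cre-positive mouse 2 (0.0318). In that comparison RLE moved the median of all genes by 0.14 on the log2 scale relative to TMM.

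**Figure D1:**
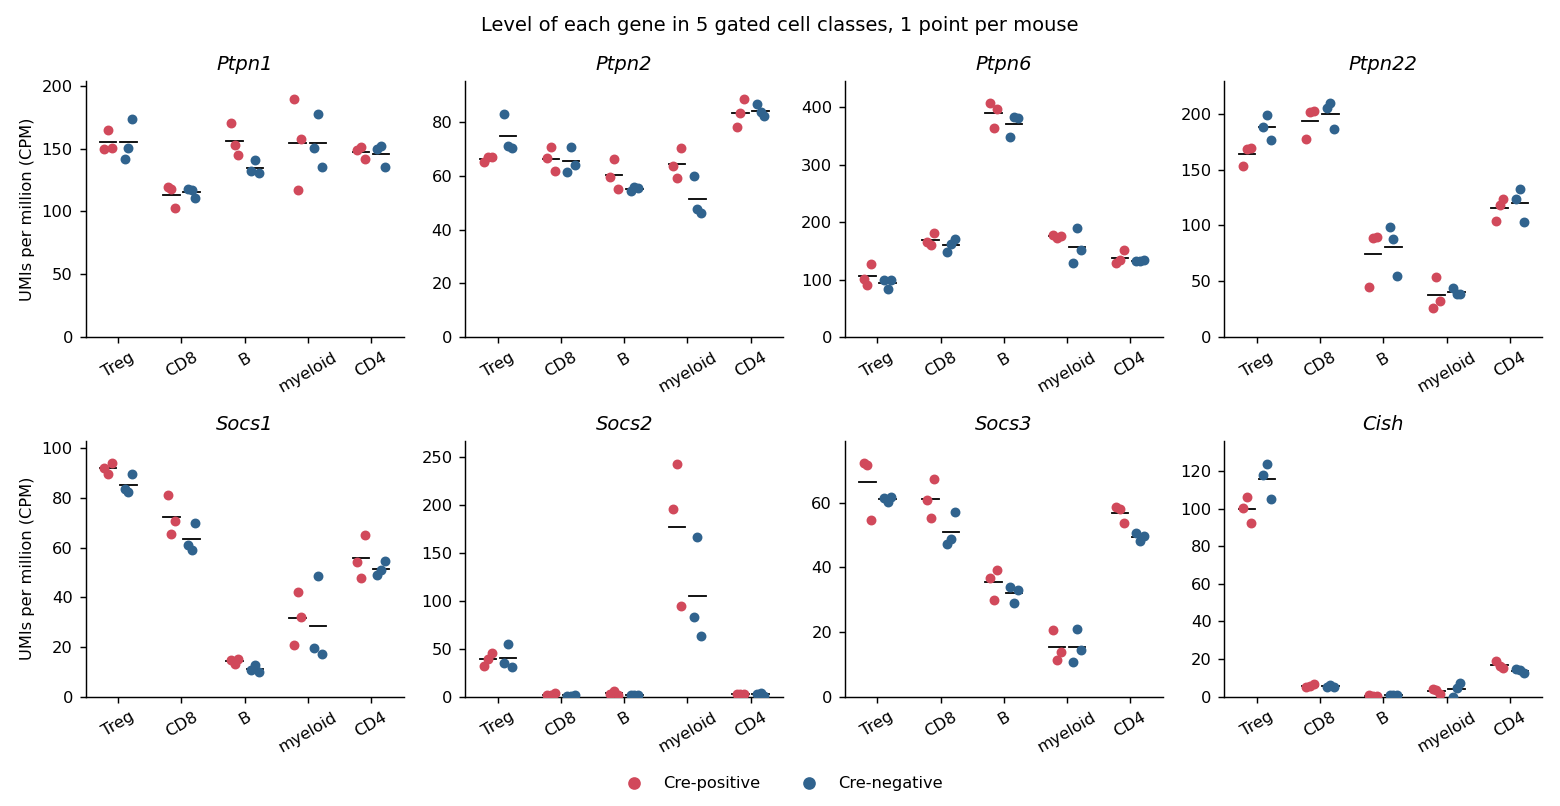
Level of each of the 8 genes (CPM of TMM-scaled UMI sums, linear axes from 0) in the 5 cell classes, 1 point per mouse and a bar at each group mean, with Cre-positive mice left of Cre-negative mice in each class. Cish and Socs2 separate Treg from the other T cells, Ptpn6 is highest in B cells at 349 to 408 CPM, and Ptpn1 differs little except for CD8 cells.

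Across the 30 class and mouse sums, Ptpn22 and Socs3 had the highest correlation of log2 levels among the 8 genes (Pearson r = 0.85), followed by Socs1 and Cish (r = 0.83). Ptpn6 ran opposite to Cish (r = -0.83) and Socs1 (r = -0.83). These are descriptions over 5 classes that share mice and libraries, so the class means carry most of each value. Among 4939 other genes with a mean of at least 20 CPM, those whose pattern was most like that of Socs1 were Irf1 (r = 0.97), Gbp7 and Prkch, and those most like Cish were Nrip1 (r = 0.93), Gpr83 and Orai1. Socs2 was nearest to Ncoa7 (r = 0.96), Fam129a and Gadd45b, and Socs3 to Gimap1 (r = 0.96), Itpkb and Sh2d2a. Ptpn6 was nearest to Hvcn1 (r = 0.96), Smap2 and D1Ertd622e, and Ptpn22 to Ubald2 (r = 0.94), Vgll4 and Hdac7. Ptpn1 (Mlec, r = 0.78, then Kdm4a and Mea1) and Ptpn2 (Arid4a, r = 0.82, then Crybg1 and Nap1l4) had lower values.

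Within Treg, thinned to 2000 UMIs per cell, Socs2 was more frequent in cells with a Cish UMI than in cells without one, and Cish was more frequent in cells with a Socs1 UMI, although most cells with one gene had no UMI of the other. Socs2 was detected in a median of 14.3% of the cells with a Cish UMI, against 5.81% of the cells without, and the share was higher with Cish in 6 of 6 mice. Socs2 was likewise more frequent in cells with a UMI of Il2ra, the high-affinity interleukin-2 receptor chain (12.5% with, 5.30% without, 6 of 6 mice). Cish was found in 25.5% of cells with Socs1 and 18.2% of cells without (6 of 6 mice). In contrast, Socs2 was less frequent in Treg with a Ptpn22 UMI (5.43%) than in those without (8.24%), with 0 of 6 mice higher. All pairs of the 8 genes and Il2ra were looked at, and those in which every mouse went the same way in Treg are given. The others were Socs1 with Socs3 (23.9% with Socs3, 15.6% without) and Socs1 with Ptpn1 (18.7% with Ptpn1, 17.0% without). Socs1 was also more frequent with Socs3 in CD4 (10.9% and 9.05%) and CD8 cells (15.7% and 10.9%), in 6 of 6 mice each, and in 5 of 6 mice in B cells. These shares are descriptions of cells from the same 6 libraries.

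The genes around the 8 were read from lists of the same pathway. The counts stand beside 17.1% of all genes called higher and 19.4% called lower in Treg over CD4 cells. In Treg over CD4 cells, 2 of 4 JAK kinases were higher and 1 lower, with Jak2 at 0.56 (SE 0.0859), Jak3 at 0.64 (SE 0.170) and Jak1 at -0.45 (SE 0.0499). Of 7 STAT factors 5 were higher and 0 lower, among them Stat4 (0.38) and Stat3 (0.25). Of 17 tested cytokine receptor chains 8 were higher and 5 lower. The interleukin-2 receptor chains Il2ra (5.38, SE 0.154) and Il2rb (3.88, SE 0.0905) were higher and the interleukin-7 receptor Il7r was lower (-1.76, SE 0.114). Of 9 other SOCS, PIAS and adaptor inhibitors, 3 were higher, including Socs5 (0.67) and Pias3 (0.79), and 1 was lower, Pias1 (-0.34). Of 9 STAT5 target genes 4 were higher, among them Lta (1.52), Bcl2l1 (1.55) and Pim1 (1.10), and 3 were lower. The medians were 0.40 for the JAK kinases, 0.25 for the STAT factors and 0.15 for the STAT5 targets, where the 8 genes had a median of 0.45 and all genes tested one of -0.03. Among 15 antigen receptor kinases and partners 8 were lower in Treg, among them Themis (-1.56) and Lat (-0.60), and 2 were higher. Of 18 other phosphatases 6 were higher and 2 lower, with Ptpn13 (3.32), Ptprj (3.24) and Dusp2 (0.76) of smallest p.

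The second comparison set states of a class against each other within the same mice. Activated CD4 cells (at least 2 UMIs of S100a4, Itgb1, Cxcr3, Icos and Maf, and more of these than of a naive set that includes Ccr7 and Lef1) numbered 450, and naive ones (a UMI of the second set and none of the first) 8415. Activated CD4 cells had more Socs2, Ptpn22, Socs3, Cish and Ptpn1 and less Ptpn2 and Ptpn6 than naive CD4 cells, so 5 of the 8 genes were called higher and 2 lower, where 25.1% of 10448 genes were called, 13.1% higher and 12% lower. Ptpn22 ranged from 204 to 271 CPM in activated cells, against 96.7 to 131 CPM in naive cells, a log2 fold change of 1.08 (SE 0.0804, adjusted p = 3.14e-21). Socs3 had 64.2 CPM at the lowest, 115 at the median and 132 at the highest in activated cells, against 43.1, 56.7 and 58.0 CPM in naive cells (1.07, SE 0.116, adjusted p = 2.15e-12). Cish had 19.8, 28.9 and 41.8 CPM in activated and 12.5, 15.1 and 18.5 CPM in naive cells (0.99, SE 0.202, adjusted p = 4.28e-05). In all 3 genes every activated value lay above every naive one. Ptpn1 was at 182 to 229 CPM in activated and 135 to 156 CPM in naive cells, also without overlap (0.48, SE 0.0809, adjusted p = 9.41e-07).

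Ptpn2 was lower in activated CD4 cells, with a median of 66.9 CPM against 90.7 CPM in naive cells (-0.44, SE 0.115, adjusted p = 0.00160), and lost its call at the 5% mitochondrial limit (0.0563). The lower Ptpn6 (-0.26, SE 0.0929, adjusted p = 0.0260) was called in 5 of 13 other settings, whose adjusted p ran from 0.0121 to 0.197, and leaving out Cre-negative mouse 2 or any of the 3 Cre-positive mice ended the call. Socs1 was not called (0.24, 95% interval -0.03 to 0.50, adjusted p = 0.205), and only without Cre-positive mouse 1 did it pass (0.38, adjusted p = 0.0470). Socs2 rested on 33 UMIs in activated cells, where it reached 24.8 CPM in Cre-positive mouse 1, and was at most 1.25 CPM in naive cells (3.66, SE 0.594, adjusted p = 3.39e-07). With 34 activated and 71 naive cells that carried dendritic or myeloid markers left out, 25 of the 33 UMIs were left and the difference was 3.62 (SE 0.607). The 6 independent myeloid markers summed to 149 to 467 CPM in activated and 120 to 134 CPM in naive CD4 cells. Malat1, a nuclear RNA read here as a sign of RNA quality, was at 24126 to 28498 CPM in activated and 19396 to 22585 CPM in naive CD4 cells. The other called members kept their calls with the cells that carried dendritic or myeloid markers left out. Beyond that step, the part of the myeloid markers or of Malat1 in their differences was not tested.

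Pathway genes moved in both directions in activated CD4 cells, where 13.1% of all genes were called higher and 12% lower. Jak2 (1.28) and Jak3 (1.04) were higher and Jak1 lower (-0.56). Of the receptor chains 5 of 16 tested were higher and 6 lower, and those of smallest p were Il2rb (3.70), Il4ra (-1.93) and Ifngr2 (-1.80). Of 17 tested other phosphatases 6 were higher and 0 lower, with Ptpn11 (1.67), Ptpn7 (0.99) and Dusp2 (0.61) of smallest p. Stat4 was higher (0.66) and Stat5a (-0.59) and Stat5b (-0.54) lower, and of 9 STAT5 targets 1 was higher and 4 lower, Bcl2 (-1.23) with the smallest p. Of 9 other SOCS, PIAS and adaptor inhibitors 1 was higher, Sh2b3 (0.79), and 2 lower, Pias1 (-0.57) and Pias2 (-0.63). Among 13 tested antigen receptor kinases and partners 3 were higher, Zap70 (0.74) among them, and 2 lower, Pag1 (-0.77) among them.

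Activated CD8 cells were few, with 16 to 38 cells per mouse, and 2 of the 8 genes were called higher and 0 lower than in naive CD8 cells (11.2% of all genes called, 6.3% higher and 4.89% lower). Ptpn22 ranged from 223 to 323 CPM in activated and 159 to 212 CPM in naive CD8 cells without overlap (0.50, SE 0.134, adjusted p = 0.00299). It lost its call without Cre-positive mouse 1 (0.138) or Cre-positive mouse 3 (0.0815). Socs2 was called as well (3.40, SE 0.879, adjusted p = 0.00192), but 9 of its 12 UMIs lay in 1 cell of Cre-positive mouse 1, a cell with 37 UMIs of Fscn1. Without that mouse the difference was 1.80 (adjusted p = 0.444), and with cells that carried dendritic markers left out it was 2.20 (adjusted p = 0.290). The independent myeloid markers summed to 96.2 to 1143 CPM in activated and 102 to 117 CPM in naive CD8 cells, and the natural killer cell markers Nkg7, Klrd1 and Gzma to 615 to 2680 CPM in activated and 667 to 779 CPM in naive CD8 cells. Both sums were highest in activated cells of Cre-negative mouse 1. Ptpn22 kept its call with 5 activated and 65 naive cells that carried dendritic or myeloid markers left out. Beyond that step, the part of either sum in the Ptpn22 difference was not tested.

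In activated Treg, 1 of the 8 genes was called higher and 1 lower than in resting Treg (16% of all genes called, 8.74% higher and 7.26% lower). Ptpn22 had 229 to 280 CPM in activated Treg, against 97.4 to 183 CPM in resting Treg, without overlap (0.90, SE 0.118, adjusted p = 2.65e-08). The 6 independent myeloid markers summed to 194 to 575 CPM in activated Treg, with 1 of them at 0, against 116 to 200 CPM in resting Treg, with 2 at 0. With 25 activated and 11 resting Treg that carried dendritic or myeloid markers left out, the calls of Ptpn22 and of Cish, given next, were kept. The part of these markers was not tested further. Cish had 62.2 CPM at the lowest, 92.0 at the median and 118 at the highest in activated Treg, against 113, 130 and 208 CPM in resting Treg (-0.70, SE 0.143, adjusted p = 0.000198). The Cish ranges overlapped, but within each of the 6 mice activated Treg had less. Ptpn22 was higher in the activated gate of all 3 T cell classes, and Cish was higher in activated CD4 cells but lower in activated Treg. The interleukin-2 receptor chains Il2ra (-0.66, SE 0.112) and Il2rb (-0.44, SE 0.0948) were also lower in activated than in resting Treg. Socs1 had a median of 68.9 CPM in activated and 134 CPM in resting Treg (-0.74, SE 0.345, adjusted p = 0.252), and was called only without the low-count filter (0.000239) and without Cre-negative mouse 3 (0.00469). Socs3 (0.45, SE 0.202, adjusted p = 0.156) was called with doublets kept, with cells that carried dendritic markers left out, and without Cre-positive mouse 3.

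**Figure D2:**
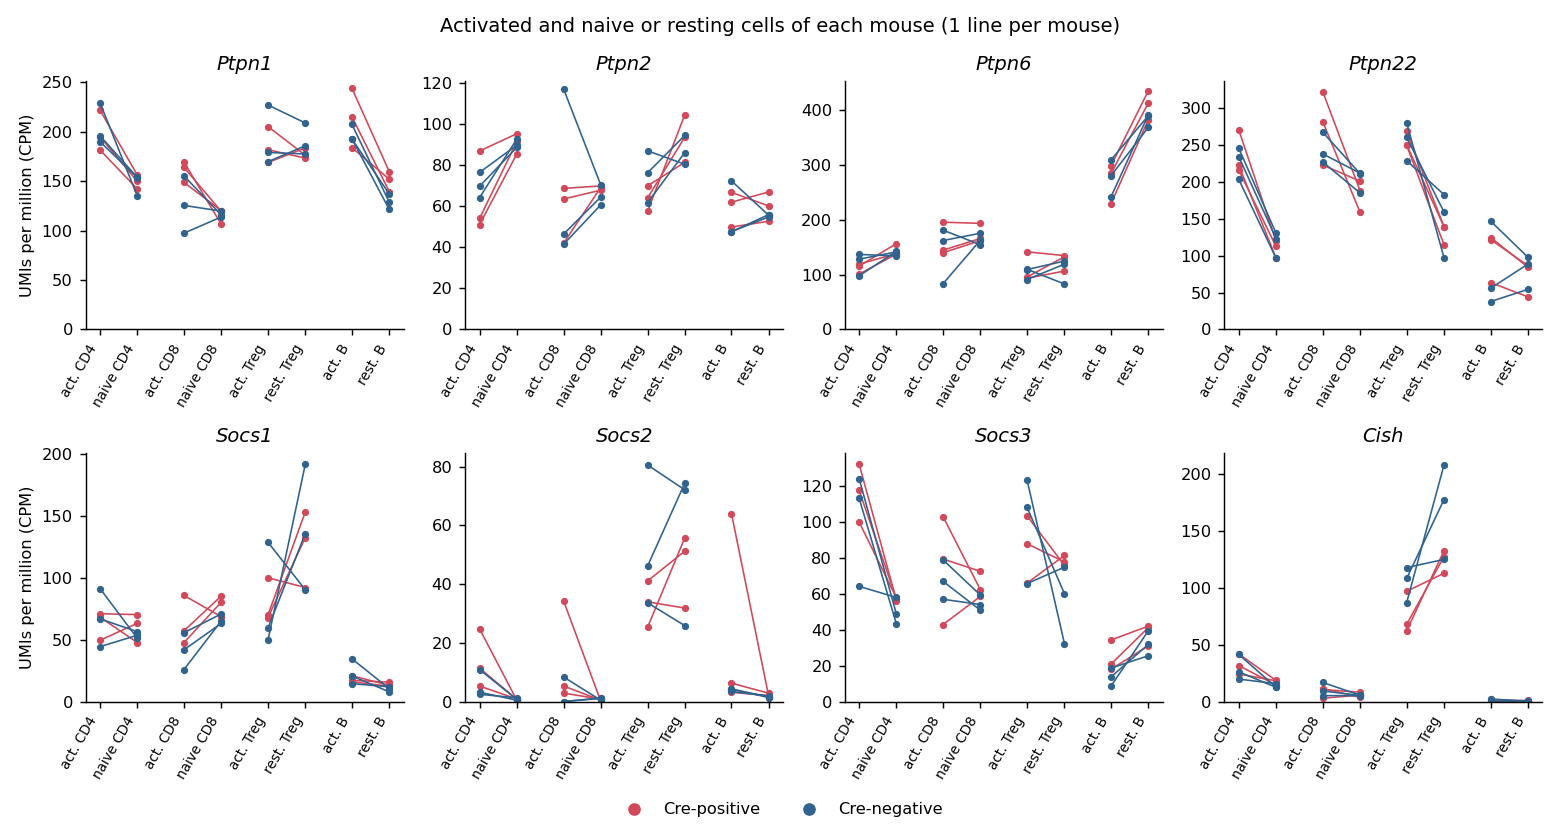
Levels (CPM) of the 8 genes in pairs of states of the same class, 1 point per mouse, joined by a line, with the activated gate left of the naive or resting gate and B cell states on the right. Ptpn22 lies higher in activated CD4 cells (204 to 271 CPM) and activated Treg (229 to 280 CPM) than in naive CD4 (96.7 to 131 CPM) and resting Treg (97.4 to 183 CPM), and Cish is lower in activated than in resting Treg.

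Cells rich in the immediate early genes Egr1, Nr4a1 and Fosb (at least 3 UMIs), which follow antigen receptor signals and also handling of tissue, had more Cish than the rest in both CD4 and CD8 cells, and in CD4 cells also more Socs3, Socs1, Ptpn22 and Ptpn6. In CD4 cells 5 of the 8 genes were called higher and 0 lower (14% of all genes called, 7.61% higher and 6.37% lower). Cish had a median of 23.2 CPM in such cells and 14.3 CPM in the rest (0.72, SE 0.137, adjusted p = 5.41e-05), Socs3 68.0 and 48.2 CPM (0.50, SE 0.0791, adjusted p = 9.96e-07), and Socs1 71.2 and 49.9 CPM (0.45, SE 0.0780, adjusted p = 7.17e-06). Ptpn22 was higher by 0.37 (SE 0.0624, adjusted p = 4.29e-06). Ptpn6 was higher by 0.18 (SE 0.0584, adjusted p = 0.0222), and it lost its call without the low-count filter (0.173) and without Cre-negative mouse 1 (0.0762), Cre-negative mouse 3 (0.0966) or Cre-positive mouse 1 (0.0581). The independent myeloid markers summed to 158 to 233 CPM in CD4 cells rich in immediate early genes, against 126 to 141 CPM in the rest. The 5 genes kept their calls with 34 such cells and 129 of the rest, which carried dendritic or myeloid markers, left out. The part of these markers was not tested further. In CD8 cells 2 were called higher and 0 lower (8.44% of all genes, 5.15% higher and 3.29% lower). Cish had a median of 10.0 CPM in cells rich in immediate early genes and 4.96 CPM in the rest (1.02, SE 0.283, adjusted p = 0.00938), a call lost at the 5% mitochondrial limit (0.114) and without Cre-negative mouse 2 (0.0648). Socs1 was not called in these CD8 cells, but passed with RLE size factors (0.28, adjusted p = 0.0431) and at the 5% mitochondrial limit (0.35, 0.0261). It also passed with dendritic-marker cells left out (0.28, 0.0424) and without Cre-positive mouse 3 (0.33, 0.0393). Ptpn6 passed only without Cre-positive mouse 3 (0.24, 0.0302). Socs2 (1.91, SE 0.570, adjusted p = 0.0182) rested on 28 UMIs, 17 of them in 1 cell of Cre-positive mouse 3 with 42 UMIs of Fscn1. It was not called without that mouse (1.19, adjusted p = 0.430), without Cre-negative mouse 3 (0.0515) or Cre-positive mouse 2 (0.0675), with DESeq2 (0.0691), or with cells that carried dendritic markers left out (1.60, adjusted p = 0.192). Cells with at least 2 UMIs of the interferon-induced genes Ifit1, Ifit3 and Rsad2 numbered 85 in CD4 and 81 in CD8, and 0 of 8 and 0 of 7 tested genes were called in them (1.33% of all genes, 0.553% higher and 0.774% lower, in CD4 and 0.903%, 0.417% higher and 0.486% lower, in CD8 cells). An unadjusted p under 0.05 was reached by 4 of 8 members in the CD4 cells (Ptpn1, Ptpn2, Socs3 and Cish), where 11.2% of all genes reached it, and by 0 of 7 in the CD8 cells, where 11.4% did. DESeq2 called 0 members in either class. Socs1 was not among them (-0.14, 95% interval -0.75 to 0.48, on 28 UMIs in interferon-high CD4 cells). The hemoglobin genes Hba-a1 and Hbb-bs summed to 48673 CPM in interferon-high CD4 cells of Cre-negative mouse 1. In the other mice they summed to at most 8.94 CPM there, and their part was not tested.

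B cells without Ighd and Fcer2a UMIs, here called activated-like, were set against B cells with both. Of 7 tested genes 3 were called higher and 2 lower (29.3% of all genes called, 15.5% higher and 13.8% lower). Ptpn1 ranged from 184 to 244 CPM in activated-like and 121 to 160 CPM in resting B cells, without overlap (0.61, SE 0.117, adjusted p = 0.000120). Ptpn6 ranged from 230 to 310 CPM, against 369 to 436 CPM in resting B cells, also without overlap (-0.49, SE 0.106, adjusted p = 0.000481). Socs3 had a median of 18.3 CPM, against 35.7 CPM in resting B cells (-0.75, SE 0.211, adjusted p = 0.00623), and lost its call at the 5% mitochondrial limit (0.407) and without Cre-positive mouse 1 (0.0546). The independent B cell markers summed to 797 to 1449 CPM in activated-like and 2032 to 2271 CPM in resting B cells, and Malat1 was at 10852 to 25529 CPM in activated-like and 25386 to 29636 CPM in resting B cells. Their part in these differences was not tested. Socs2 (2.25, SE 0.625, adjusted p = 0.00732) drew 32 of its 44 UMIs from 5 cells of Cre-positive mouse 2. It was at 1.16 (adjusted p = 0.208) without that mouse and at 0.38 (adjusted p = 0.856) with cells that carried dendritic or myeloid markers left out, a step that took 124 of 427 activated-like cells. Socs1 (0.74, SE 0.267, adjusted p = 0.0348) was then at 0.23 (adjusted p = 0.779). Its call was also lost without the low-count filter (0.0615), at the 5% mitochondrial limit (0.717) and without Cre-negative mouse 1 (0.114), Cre-negative mouse 3 (0.0821) or Cre-positive mouse 1 (0.0854).

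The third comparison set these genes in Cre-positive against Cre-negative mice, with B cells as a class in which CD4-Cre is not expected to act. No mouse carried CD4-Cre without the floxed gene, so effects of gene deletion and of the transgene itself cannot be told apart. No member passed the threshold in any class or state. Of 96 gene and gate pairs over 12 gates, 86 had enough counts to be tested, 0 were called and 15 had an unadjusted p under 0.05. Over all genes 5.15% of the tests in these gates had one, and since the state gates lie within the class gates, the same cells enter more than 1 test. The 15 were 3 in B and 2 in resting B cells, 2 each in CD4, naive CD4, CD8 and naive CD8 cells, and 1 each in activated and resting Treg. The smallest adjusted p was 0.611, and 0 of 1191 values under other settings, DESeq2 included, were called. Over all genes, 0.0745% were called in CD4 cells, 0.0475% in CD8 cells and 0% each in Treg, B and myeloid cells. Among the states, 0.0691% were called in naive CD4, 0.0307% in naive CD8 and 0.00997% in resting B cells, and 0% each in activated CD4 cells, activated and resting Treg and activated-like B cells. With 3 mice per group these tests leave room for small changes, and the intervals below give their size.

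Ptpn1 was nearly equal in both groups in each T cell class. In CD4 cells it was at 149, 151 and 142 CPM in Cre-positive mice, against 150, 152 and 135 CPM in Cre-negative mice. The values overlapped, and the log2 fold change was 0.02 (SE 0.0759, 95% interval -0.13 to 0.18). In Treg it was at 150, 165 and 150 CPM in Cre-positive and 142, 150 and 174 CPM in Cre-negative mice (0.01, 95% interval -0.21 to 0.24). In CD8 cells it was at 119, 118 and 103 CPM in Cre-positive and 118, 117 and 110 CPM in Cre-negative mice (-0.02, 95% interval -0.19 to 0.14). Activated CD4 cells (-0.04, 95% interval -0.36 to 0.27) and activated Treg (-0.04, 95% interval -0.42 to 0.33) had wider intervals around similar values. Among the 5 classes B cells had the largest Ptpn1 difference, with 170, 153 and 145 CPM in Cre-positive mice, against 132, 141 and 130 CPM in Cre-negative mice. These groups did not overlap, and the log2 fold change was 0.21 (SE 0.0796, unadjusted p = 0.0175, adjusted p = 0.999 with edgeR). The difference between the CD8 and the B cell effect was -0.23 (SE 0.0665, unadjusted p = 0.00205, adjusted p = 0.689), and that between CD4 and B cells was -0.18 (SE 0.0651, adjusted p = 0.861).

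Socs3 and Cish were the members of CD4 cells whose groups did not overlap, 2 of 8 against 10.9% of all genes tested. Socs3 was at 58.7, 58.0 and 53.8 CPM in Cre-positive mice, against 50.7, 48.0 and 49.8 CPM in Cre-negative mice (0.21, SE 0.0713, adjusted p = 0.664 with edgeR). Every Cre-positive mouse was above every Cre-negative one. In CD8 cells Socs3 was at 60.8, 55.2 and 67.4 CPM in Cre-positive and 47.1, 48.7 and 57.3 CPM in Cre-negative mice, which overlapped (0.25, SE 0.0948, adjusted p = 0.611 with edgeR). Cish in CD4 cells was at 18.9, 16.3 and 15.1 CPM in Cre-positive and 14.7, 14.1 and 12.4 CPM in Cre-negative mice (0.29, SE 0.117, adjusted p = 0.838 with edgeR). In Treg it was at 100, 106 and 92.3 CPM in Cre-positive and 118, 124 and 105 CPM in Cre-negative mice, which overlapped (-0.20, SE 0.120). The Treg effect of Cish minus the CD4 effect was -0.50 (95% interval -0.81 to -0.20, unadjusted p = 0.00160, adjusted p = 1.00 with edgeR). In resting Treg Cish was at 127, 113 and 133 CPM in Cre-positive and 178, 208 and 125 CPM in Cre-negative mice with overlap (-0.46, SE 0.187, adjusted p = 0.873 with edgeR).

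In Treg 2 of 8 members did not overlap, both lower in Cre-positive mice, against 9.51% of all genes tested. Ptpn2 was at 65.0, 66.8 and 67.1 CPM in Cre-positive and 83.0, 71.2 and 70.4 CPM in Cre-negative mice (-0.17, 95% interval -0.44 to 0.11). Ptpn22 was at 153, 169 and 169 CPM in Cre-positive and 189, 199 and 177 CPM in Cre-negative mice (-0.19, 95% interval -0.41 to 0.03). Ptpn6 in Treg, at 100.9, 90.7 and 126 CPM in Cre-positive and 99.2, 83.5 and 99.8 CPM in Cre-negative mice, overlapped (0.18, SE 0.131). In B cells 3 of 7 tested members did not overlap, against 9.95% of all genes, and these were Ptpn1, Socs1 and Socs2. Socs1 was at 14.5, 13.1 and 15.3 CPM in Cre-positive and 10.7, 12.8 and 9.94 CPM in Cre-negative B cells (0.36, SE 0.133, adjusted p = 0.990 with edgeR). Socs2 was at 2.69, 6.16 and 1.82 CPM in Cre-positive and 1.73, 1.55 and 1.72 CPM in Cre-negative B cells (0.99, SE 0.430, adjusted p = 0.999 with edgeR), and with cells that carried dendritic or myeloid markers left out it was at 0.16 (SE 0.348). In CD8 cells 0 of 8 (12.2% of all genes) and in myeloid cells 0 of 6 tested members (7.75%) did not overlap. The count was 0 of 7 in activated CD4 (9.81% of all genes), naive CD4 (10.4%) and naive CD8 cells (11.8%). It was 0 of 8 in activated Treg (9.78%) and 0 of 5 in activated-like B cells (10.3%). Resting Treg and resting B cells are given at the end. The interval for Socs1 was -0.09 to 0.32 in CD4 cells and -0.13 to 0.37 in Treg. In naive CD8 cells Socs1 had a log2 fold change of 0.23 with an interval of 0.04 to 0.42 (adjusted p = 0.642 with edgeR), and in CD8 cells as a whole one of 0.19 (SE 0.0909, unadjusted p = 0.0463, adjusted p = 0.696 with edgeR).

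Ptpn22 in B cells varied more between mice of a group than between groups. It was at 45.1, 88.2 and 89.7 CPM in Cre-positive and 98.7, 87.5 and 54.3 CPM in Cre-negative mice (-0.12, 95% interval -1.21 to 0.98). Cre-positive mouse 1 and Cre-negative mouse 3 were lowest, and the same mice were lowest in CD4 cells (104, 118 and 124 CPM in Cre-positive, 124, 133 and 103 CPM in Cre-negative mice) and in CD8 cells (177, 201 and 202 CPM in Cre-positive, 205, 209 and 186 CPM in Cre-negative mice). In Treg Cre-positive mouse 1 was also lowest, but Cre-negative mouse 3 lay above every Cre-positive mouse. The neighbouring gene Rsbn1 in B cells was at 67.4, 70.4 and 62.7 CPM in Cre-positive and 72.5, 65.1 and 67.0 CPM in Cre-negative mice, before TMM scaling, and did not share the low values of these mice. Median depth over all kept cells was 4239, 5038 and 5078 UMIs in Cre-positive and 5596, 4856 and 4480 UMIs in Cre-negative mice. Ptpn22 in B cells put the mice in the same order as this depth, with the shallowest libraries lowest. In CD4 and CD8 cells the order differed from that of depth, though the same libraries were lowest. The part of library depth in the Ptpn22 values was not tested.

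**Figure D3:**
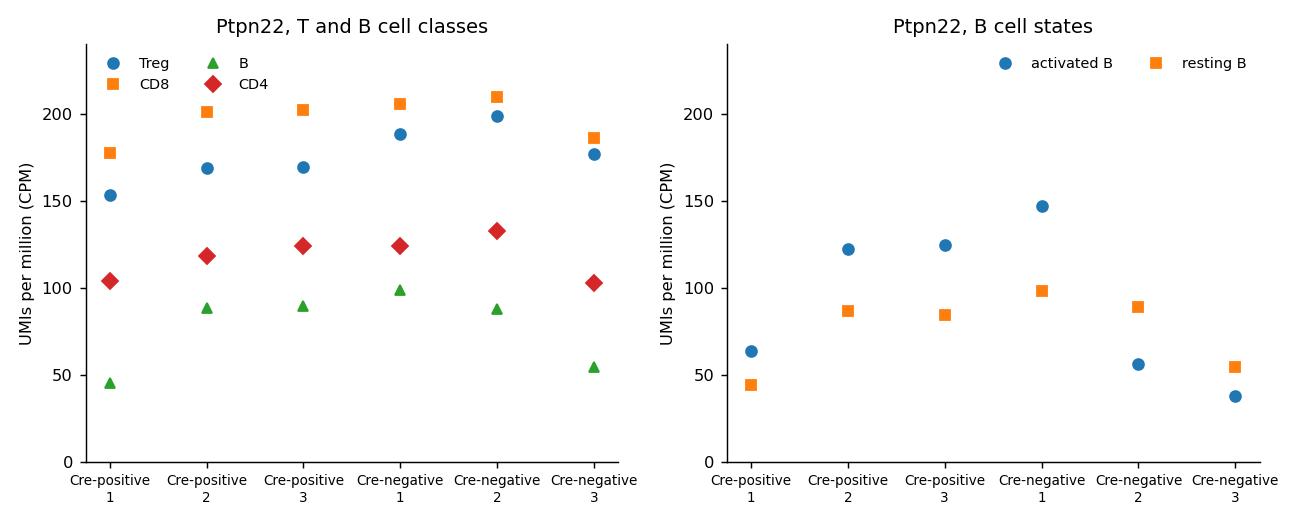
Ptpn22 level (CPM) in T and B cell classes and in B cell states, by mouse, with Cre-positive mice 1 to 3 left of Cre-negative mice 1 to 3. Cre-positive mouse 1 (45.1 CPM) and Cre-negative mouse 3 (54.3 CPM) are lowest in B cells, and their libraries had the lowest median UMIs per kept cell.

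**Figure D4:**
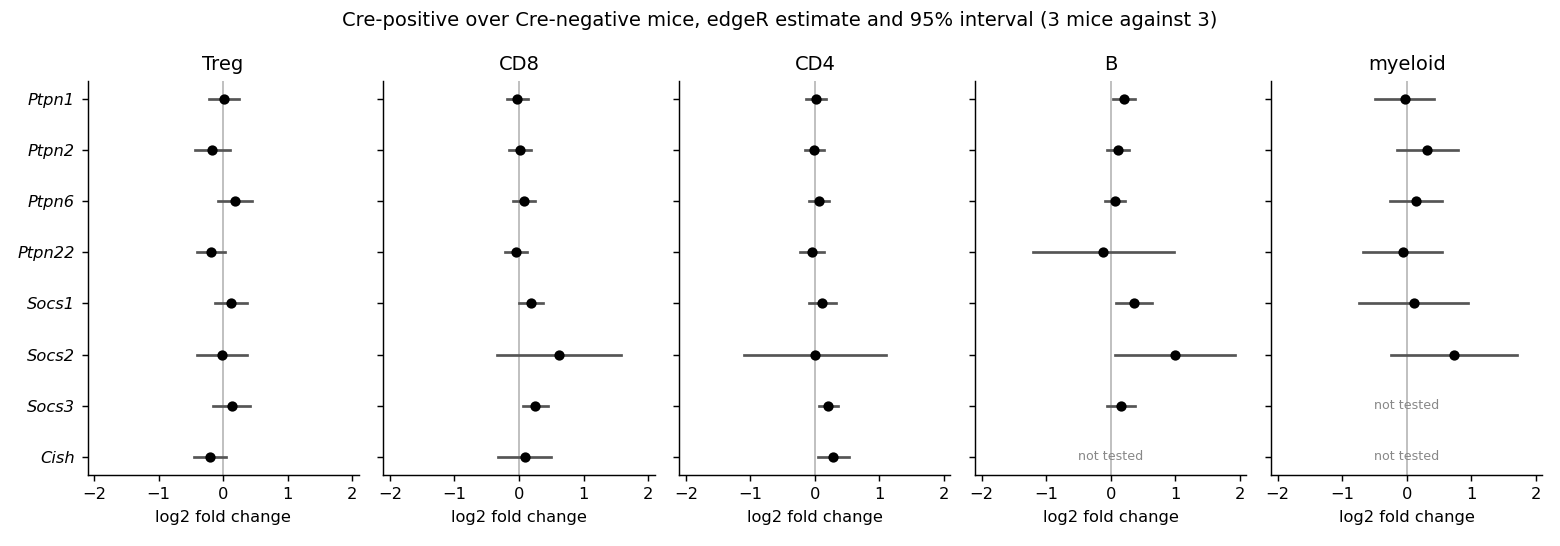
Log2 fold change of each gene, Cre-positive over Cre-negative, with its 95% interval, in the 5 classes (3 mice against 3, genes with too few counts marked as not tested). Ptpn1 lies at 0.02 in CD4 cells and 0.21 in B cells, and the interval of Socs2 in CD4 cells runs from -1.10 to 1.10.

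Interaction tests, which ask whether the genotype effect differs between classes or states, called 0 of 56 member values in 7 comparisons, and 5 had an unadjusted p under 0.05, as had 4.82% of all tests in them. Over all genes these comparisons called 0.0337% for CD4 against B, 0% for Treg against B, 0.0257% for CD8 against B, 0.00915% for Treg against CD4 and 0.17% for CD8 against CD4, and 0.0287% and 0.0299% for the activation states of CD4 cells and Treg. The JAK, STAT, receptor, inhibitor, phosphatase, antigen receptor and STAT5 target lists also held 0 called genes between genotypes in the 12 gates. In the interaction tests they held 1 called gene, the STAT5 target Pim1, a kinase that promotes survival. Pim1 was at 237, 155 and 211 CPM in activated CD4 cells of Cre-positive mice, against 281, 351 and 328 CPM in those of Cre-negative mice, without overlap, and naive CD4 cells of both groups lay between 261 and 315 CPM. The genotype effect in activated minus that in naive CD4 cells was -0.71 (SE 0.146, adjusted p = 0.0184 with edgeR), 1 of 3 genes called. The call was lost without Cre-positive mouse 2 (0.448), Cre-positive mouse 3 (0.151), Cre-negative mouse 2 (0.278) or Cre-negative mouse 3 (0.206). The list medians between genotypes in CD4 cells were 0.02 for the STAT factors and 0.12 for the STAT5 targets, beside 0.04 for the 8 genes and 0.00 for all genes.

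Myeloid cells were divided by marker UMIs, and their subsets are given as values without a fit. Socs2 was the member with the most uneven distribution. Migratory dendritic cells (Fscn1 and Ccr7 UMIs, 18 to 86 per mouse and 270 in all) carried 631, 680 and 520 CPM of Socs2 in Cre-positive mice, against 279, 423 and 195 CPM in Cre-negative mice. The groups did not overlap, on 374 UMIs from Cre-positive and 172 from Cre-negative mice, and averaged 610 ± 82.0 CPM in Cre-positive and 299 ± 115 CPM in Cre-negative mice (SD, n = 3 each). The groups did not overlap in 9.51% of the 5194 genes with at least 20 UMIs in these cells, and in 2 of the 6 members with as many, Socs2 and Ptpn22. Malat1 was at 62980, 81838 and 41012 CPM there in Cre-positive and 27721, 63983 and 61452 CPM in Cre-negative mice, with overlap. In whole myeloid cells Socs2 was at 195, 242 and 94.9 CPM in Cre-positive and 83.0, 167 and 63.4 CPM in Cre-negative mice (0.73, 95% interval -0.24 to 1.70). A Socs2 UMI was found in 45.7%, 51.2% and 72.2% of migratory dendritic cells in Cre-positive mice and 40.6%, 52.2% and 30% in Cre-negative mice. Single cells held up to 26 Socs2 UMIs in Cre-positive and up to 14 in Cre-negative mice, and the median depth was 2477, 2932 and 4391 UMIs per cell in Cre-positive and 2509, 3884 and 2067 in Cre-negative mice. Plasmacytoid cells had 1 Socs2 UMI in all. Myeloid cells outside the named subsets held 28, 35 and 5 Socs2 UMIs in Cre-positive and 15, 50 and 26 in Cre-negative mice. Of members with at least 20 UMIs, 0 of 7 in those cells had groups that did not overlap (7.5% of all such genes). In plasmacytoid cells it was 0 of 3 (9.83%). Ptpn22 in migratory dendritic cells was at 8.42, 16.7 and 9.45 CPM in Cre-positive and 38.5, 37.2 and 43.3 CPM in Cre-negative mice, without overlap, on 8 and 19 UMIs. In monocytes and macrophages Ptpn22 was at 54.8, 68.0 and 67.2 CPM in Cre-positive and 47.2, 51.1 and 20.9 CPM in Cre-negative mice, also without overlap and in the other direction, on 13 and 10 UMIs, where 9.44% of 2500 genes did not overlap.

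**Figure D5:**
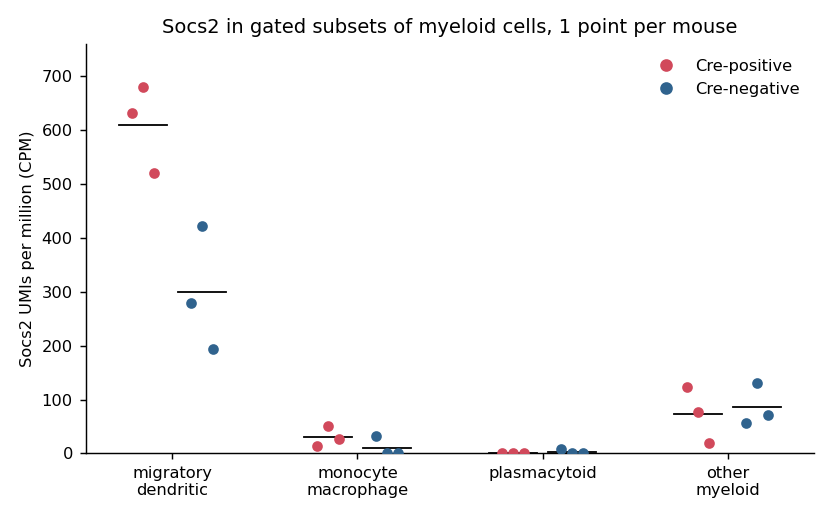
Socs2 level (CPM) in the myeloid subsets, 1 point per mouse, with Cre-positive mice left of Cre-negative mice. Migratory dendritic cells hold 520 to 680 CPM in Cre-positive and 195 to 423 CPM in Cre-negative mice.

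The other members were spread differently over these subsets. Ptpn6 was highest in plasmacytoid cells, at 347, 351 and 299 CPM in Cre-positive and 230, 303 and 257 CPM in Cre-negative mice, though 1 mouse had 245 CPM in monocytes and macrophages. Ptpn22 had 1 UMI in plasmacytoid cells in all. Ptpn1 reached its highest single value in monocytes and macrophages, 493 CPM in Cre-positive mouse 1, but ranged down to 125 CPM in that subset and overlapped the plasmacytoid range of 184 to 293 CPM. Ptpn1 was lowest in migratory dendritic cells, with 47.3 CPM at the lowest and 89.6 CPM at the median, though its highest mouse, at 162 CPM, lay within the range of the other subsets. Socs1 in migratory dendritic cells was at 33.7, 94.7 and 104 CPM in Cre-positive and 28.8, 60.9 and 32.4 CPM in Cre-negative mice, which overlapped. Socs3 and Cish rested on 35 or fewer UMIs in each subset.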

How the data were processed

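Single-cell libraries of mouse pancreatic lymph nodes, 1 per mouse, were deposited as raw UMI count matrices. The authors counted reads per gene with Cell Ranger 6.1.2 on mm10, per the submitters' processing notes, and the deposited counts are not normalized.

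Barcodes with at least 500 UMIs, 300 genes and at most 10% mitochondrial UMIs were kept. The 480 to 914 barcodes of highest Scrublet score in each library, a number set by library size, were removed as doublets. Cells were gated by marker UMIs and counts summed per mouse and gate. Sums were tested with the quasi-likelihood test of edgeR 4.0.16 (R 4.3.3; TMM, filterByExpr, robust), adjusted by Benjamini-Hochberg over all genes at 0.05. Class and state fits had a term for the mouse. Genotypes were tested in gates with at least 30 cells in every mouse, so activated CD8 cells were not tested. Gates are marker thresholds, and clusters (scanpy 1.11.5) served as an alternative, as did DESeq2 1.42.0, RLE size factors, no low-count filter, other cell filters and leaving out each mouse. Leaving out cells with dendritic markers was an alternative chosen after seeing the data. Named pathway genes were up to 3 per list of smallest p. The members and lists were chosen with earlier results of these data known. Values of the floxed gene and of a few others are left out. Scripts were tested on simulated data. Gene positions are from GENCODE M21.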

Additional observations from a re-analysis of the deposited data

Results flagged for a closer look

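The genotype effect on Pim1 differed between states of CD4 cells in a test of the difference itself. Activated CD4 cells had a mean of 201 ± 41.8 CPM in Cre-positive mice, against 320 ± 35.3 CPM in Cre-negative mice (SD, n = 3 each), and naive CD4 cells had 290 ± 27.3 CPM in Cre-positive and 289 ± 8.83 CPM in Cre-negative mice. The difference between the effects was -0.71 on the log2 scale (SE 0.146, adjusted p = 0.0184 with edgeR). Over RLE size factors and leaving out each mouse it ran from -0.82 to -0.60, with adjusted p from 0.0127 to 0.448.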

How the results depend on the processing

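No member was called between genotypes in any setting run (0 of 1191 values called, smallest adjusted p 0.312). No class, state or genotype value of a member changed sign after being called. Of the class values of members 503 kept their side of the threshold, 10 lost it and 7 gained it, and of the state values 753 kept it, 34 lost it and 15 gained it. The number of members called, higher and lower together, moved by more than 1.5 times in 3 state comparisons, and by 1 or 2 members in others. For activated CD8 cells it was 2, was 1 with dendritic-marker cells left out and 3 with RLE, and ran from 0 to 2 when 1 mouse was left out. For CD8 cells rich in immediate early genes it was 2, was 1 with DESeq2 and 3 with RLE, and ran from 1 to 3 when 1 mouse was left out. For activated-like B cells it was 5, was 2 at the 5% mitochondrial limit and 3 with dendritic-marker cells left out, and ran from 3 to 6 when 1 mouse was left out. The causes were not tested. Counts of all genes called between genotypes are small and moved, with each mouse in, from 8 in CD4 cells to between 2 and 32, from 5 in CD8 cells to between 2 and 61, from 0 in B cells to at most 32, from 0 in activated-like B cells to at most 43, and from 0 in Treg and in myeloid cells to at most 10 each. With 1 mouse left out they ran from 3 to 19 in CD4 and 1 to 39 in CD8 cells. In the pairing check, same-numbered mice had correlations of their deviations between -0.32 and 0.35 over the classes, so the numbers were not used to pair mice, and with a replicate block 0 members were called in any of the 12 gates. RLE moved the median of all genes relative to TMM by 0.20 and 0.22 on the log2 scale in interferon-high CD4 and CD8 cells. Depth limits Socs2 in CD4, CD8 and B cells and Cish in B and myeloid cells, and gates of 16 to 38 cells per mouse limit activated CD8 cells.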

Other observations

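Socs3 in resting Treg was at 77.8, 75.9 and 81.4 CPM in Cre-positive mice, against 60.1, 74.9 and 32.3 CPM in Cre-negative mice, without overlap (log2 fold change 0.50, SE 0.256, adjusted p = 0.993 with edgeR). Of 8 members tested there it was the only one whose groups did not overlap, where 9.87% of all genes did not. Socs2 in activated Treg was at 34.0, 41.1 and 25.2 CPM in Cre-positive and 46.1, 80.6 and 33.7 CPM in Cre-negative mice, which overlapped (-0.69, SE 0.312, adjusted p = 0.999 with edgeR). In resting B cells 2 of 7 tested members, Ptpn1 and Socs1, did not overlap (10.4% of all genes), with log2 fold changes of 0.21 and 0.46 (adjusted p = 0.892 for each with edgeR).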
